A study of Mus musculus with 9 samples.

Results

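The comparison described here follows the loss of the last allele of Esrp2 in skin that already had no Esrp1. Of the 9 RNA-seq libraries of the series, 4 entered it, each from the trunk epidermis of 1 mouse embryo at E18.5. The 2 DKO libraries (Esrp1-/-, Esrp2-/-) had no working allele of either gene, and the 2 KH libraries (Esrp1-/-, Esrp2+/-) kept 1 allele of Esrp2. Genes were included when their average FPKM (fragments per kilobase of transcript, scaled to the number of mapped fragments) was at least 1 in either group, which left 12558 of the 38203 genes in the table. Of these, 11834 passed in both groups, 301 passed through DKO alone and 423 through KH alone. The other libraries were KO (Esrp1-/-, Esrp2+/+, 3 libraries) and WT (2 libraries), and they entered the fit for the estimate of the spread. The Esrp1 allele was a germline deletion of exons 7 to 9, made by Cre recombination in the oocyte, and the Esrp2 allele replaced the gene by a cassette with a lacZ reporter, so both losses covered the whole animal and not the epidermis alone. The mice were of a mixed C57BL6 and 129Sv background. KH and DKO embryos came from different parental crosses, and cross and genotype cannot be told apart.

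Esrp1 and Esrp2 are paralogous RNA-binding proteins of epithelial cells, where they direct the choice of epithelial over mesenchymal exons in many transcripts. The epidermis is renewed from a basal layer whose cells express Krt5 and Krt14, pass through a spinous layer with Krt1 and Krt10, and end in a granular and cornified layer with loricrin and filaggrin. Injured, inflamed or hyperproliferative epidermis is known for switching on another set of genes, among them the keratins Krt6a, Krt6b and Krt16, the small proline-rich (Sprr) and late cornified envelope 3 (Lce3) proteins, calprotectin and antimicrobial peptides.

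Esrp2 was 0.0843 and 0.0463 FPKM in DKO and 38.6 and 89.5 in KH. The KO libraries held 88.1 to 131 FPKM and the WT libraries 118 and 136, which matches the DKO label, while 1 of the 2 KH libraries lay within the range of the libraries with 2 alleles. Esrp1 was 42.2 and 38.7 FPKM in DKO and 18.2 and 55.1 in KH, against 119 and 142 in WT, and a value for the whole gene does not separate transcripts that lack the deleted exons. The DKO and KH groups overlapped for Esrp1 (log2 0.34 ± 0.41, adjusted p = 0.987). The 4 libraries had Xist at 0.178 FPKM or less and summed Y-linked markers of 42.2 to 85.6 FPKM. Across genes the 2 KH libraries correlated at r = 0.942 with each other, the 2 DKO libraries at 0.973, and single KH and DKO libraries at 0.940 to 0.960. KH replicate 1 lay closest to a KO library (r = 0.985) and KH replicate 2 to a WT library (r = 0.979). The sum of all FPKM was 1112137 and 771857 in DKO and 713318 and 925443 in KH. Numbers of reads per library are not part of the FPKM table, so no counting interval is given. Keratinocyte markers of the basal layer (Krt5, Krt14 and others) summed to 4137 to 7576 FPKM over the 4 libraries, markers of dermal fibroblasts to 350.1 to 469, of melanocytes to 65.6 to 229.8, of adipocytes to 30.4 to 87.5 and of endothelial cells to 2.08 to 4.07. Markers of the spinous layer summed to 60820 and 35250 FPKM in DKO and 38460 and 61000 in KH. Those of the granular and cornified layer summed to 17080 and 8229 FPKM in DKO and 6454 and 19700 in KH. The 2 libraries of each group thus differed in these sums. None of these markers was called. In bulk epidermis a change in the number of cells of a type and a change of RNA per cell cannot be told apart.

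Of the genes called between DKO and KH most were higher in DKO, a split that rested on KH replicate 1. Calls required an adjusted p under 0.05 and a difference of over 2-fold between the group averages, with limma on log2(FPKM + 1) and Benjamini-Hochberg adjustment over all 12558 genes. By this rule 64 genes were called, or 0.51% of those tested. Of these 57 were higher in DKO (0.454% of tested genes) and 7 were lower (0.0557%). In all 64 both DKO libraries lay on one side of both KH libraries, an arrangement that 14.5% of all tested genes showed with DKO above and 13.8% with DKO below. In 56 of the 57 higher genes both DKO libraries were above all 7 other libraries of the series, which held for 5.08% of tested genes. All 7 lower genes lay below the other 7 libraries, as did 5.57% of tested genes. The exception was Gm14010, a lincRNA with 7.57 and 3.81 FPKM in DKO and 0.789 and 1.03 in KH and 5.01 and 5.84 in WT. The higher genes had a median average of 0.921 FPKM in KH and 11.4 in DKO. Of the 57, 29 averaged below 1 FPKM in KH and so entered the test through DKO alone, where they had to be higher. Among genes that averaged at least 1 FPKM in both groups 28 were called higher and 3 lower. The 7 lower genes had a median average of 13.7 FPKM in KH and 0.474 in DKO. With every library rescaled to the same total (TPM), the median log2 difference of all genes moved from 0.01 to -0.15 and the split changed from 57 higher and 7 lower to 59 higher and 32 lower. Without KH replicate 1 it was 40 higher and 39 lower. None of the 64 called genes changed sign in any of the 22 alternatives computed.

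**Figure D1:**
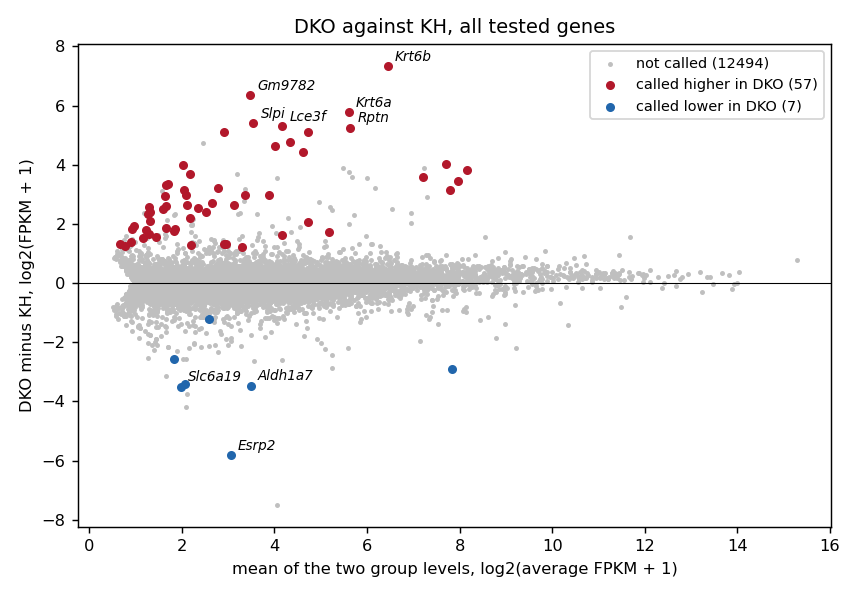
Difference between DKO and KH on the log2(FPKM + 1) scale (vertical axis) against the mean of the 2 group levels, log2(average FPKM + 1) (horizontal axis), for the 12558 tested genes. Red points are the 57 genes called higher in DKO, blue points the 7 called lower and grey points the rest. Krt6b stands highest and Esrp2 lowest of the called genes.

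The wound and stress keratins included Krt6b, the largest increase on the log2 scale. Krt6b, a type II keratin of wounded epidermis and of the hair follicle's companion layer, was 710.2 and 1593 FPKM in DKO and 4.83 and 6.39 in KH, a 205-fold higher average (log2 7.34 ± 0.38, adjusted p = 3.38e-05). Its close copy Krt6a was 156 and 629 FPKM in DKO and 6.82 and 3.19 in KH (log2 5.78 ± 0.55, adjusted p = 0.00151). The DKO libraries differed from each other more than 2-fold in both genes, yet the lower of them stood far above the other 7 libraries, where Krt6b did not exceed 12.2 FPKM and Krt6a did not exceed 6.82. Reads of the 2 genes can be shared, so their separate values are uncertain. Krt16, their type I partner, was already well expressed with 38.3 and 42 FPKM in KH and reached 353 and 697 in DKO (log2 3.60 ± 0.34, adjusted p = 0.00142). The last member of the list, Krt17, overlapped between the groups with 539 and 599 FPKM in DKO and 578 and 347 in KH. Thus 3 of 4 members were called higher, against 0.454% of all tested genes.

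**Figure D2:**
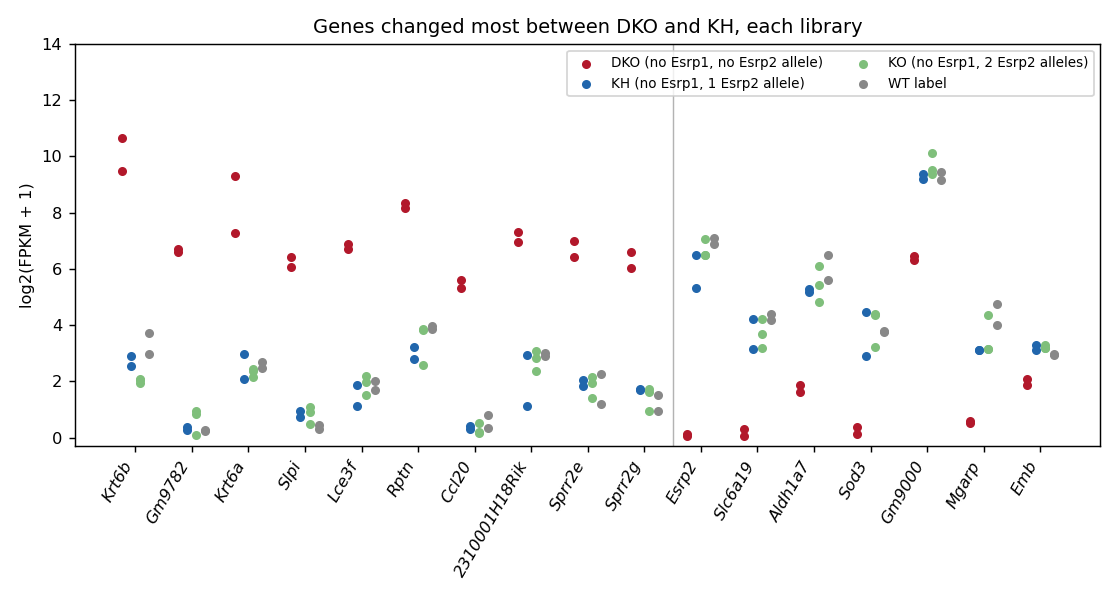
log2(FPKM + 1) of the 10 called genes with the largest increase (left of the line) and all 7 called genes with a decrease (right), 1 point for each of the 9 libraries, coloured by genotype. Red DKO points stand apart from the KH, KO and WT points, which overlap.

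Keratins of other epithelia followed for 3 of 11 tested members. Krt12, known as the keratin of the corneal epithelium, was 994 and 1040 FPKM in DKO and 44.7 and 113 in KH (log2 3.82 ± 0.49, adjusted p = 0.00954), which placed it among the most abundant of the called genes. Its call was lost without either DKO library and with only DKO and KH in the fit. Its locus overlaps another gene, and although the libraries were strand-specific, the strand setting of the counting is not given. Krt84, a keratin of hard epithelial structures, was 4.63 and 3.61 FPKM in DKO and 0.17 and 0.205 in KH (log2 2.10 ± 0.23, adjusted p = 0.00373). Krt7, a keratin of simple epithelia, was 13 and 9.53 FPKM in DKO and 3.53 and 4.28 in KH (log2 1.31 ± 0.22, adjusted p = 0.0424), a call that held in 4 of the 22 alternatives and was lost on leaving out any 1 library. Krt13 and Krt34 had DKO above KH without passing the test: Krt13 was 47.1 and 9.46 FPKM in DKO and 1.21 and 3.85 in KH (adjusted p = 0.227), and Krt34 was 14.2 and 3.65 FPKM in DKO and 0.615 and 1.8 in KH (adjusted p = 0.241). The keratins of the normal layers had 0 of 10 members called, against 0.51% of all tested genes, and a median log2 difference of 0.03 against 0.01 over all tested genes. Of these 10, 1 had DKO above KH and 1 below, near the 14.5% and 13.8% over all tested genes. Krt77, a spinous keratin, was 22.6 and 5.36 FPKM in DKO and 65.8 and 122 in KH (log2 -2.88, adjusted p = 0.273), and Krt2 was 13.9 and 3.76 FPKM in DKO and 1.37 and 0.918 in KH (log2 1.98, adjusted p = 0.205).

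The 6 Lce3 genes were all called higher (0.454% over all tested genes), with log2 differences from 1.83 to 6.35. Of these, Lce3a, Lce3b and Lce3d averaged below 1 FPKM in KH. They entered the test through DKO alone, where they had to be higher. These genes encode small proteins of the cornified envelope that are known for induction on barrier injury. Lce3d, listed under its older name Gm9782, was 95.8 and 104 FPKM in DKO and 0.189 and 0.291 in KH, a 416-fold higher average (log2 6.35 ± 0.28, adjusted p = 2.26e-05). Lce3f was 118 and 103 FPKM in DKO and 1.19 and 2.63 in KH (log2 5.30 ± 0.30, adjusted p = 6.51e-05), and Lce3e, listed as 2310001H18Rik, was 157 and 124 FPKM in DKO and 1.2 and 6.67 in KH (log2 5.09 ± 0.49, adjusted p = 0.0016). In KH these 3 genes did not exceed 6.67 FPKM, and in DKO none was below 95.8. Lce3c differed from them in its level in KH, with 1085 and 526 FPKM in DKO and 24.4 and 83.3 in KH (log2 4.03 ± 0.55, adjusted p = 0.013). Its call was lost without DKO replicate 1. Lce3b was listed at 0 in both KH libraries and at 5.25 and 4.71 FPKM in DKO (adjusted p = 0.00041), and Lce3a was also listed at 0 in KH and at 3.21 and 1.99 in DKO (adjusted p = 0.00952). The Lce3a call held in 18 of the 22 alternatives. The Lce1 and Lce6 genes, which belong to the normal cornified envelope and lie in the same cluster, had 0 of 15 members called and overlapped between the groups in all 15, where 0.51% of all tested genes were called and 71.6% overlapped. Their median log2 difference was 0.20, and at a share of 0.51% 0 calls in 15 genes is no result about them. Libraries of the same group lay far apart in Lce1b, with 3055 and 1066 FPKM in DKO and 820 and 2997 in KH (log2 0.20 ± 0.78).

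Of 12 tested Sprr genes, which encode cross-linked precursors of the cornified envelope, 7 were called higher and 11 had both DKO libraries above both KH libraries. Over all tested genes these shares were 0.454% and 14.5%. Of the 7, Sprr2f and Sprr2i averaged below 1 FPKM in KH and so entered the test through DKO alone. The median log2 difference of the 12 was 3.19. Sprr2e was 84.1 and 126 FPKM in DKO and 2.58 and 3.09 in KH (log2 4.76 ± 0.38, adjusted p = 0.000449), and Sprr2g was 64.6 and 96.1 FPKM in DKO and 2.27 and 2.19 in KH (log2 4.63 ± 0.32, adjusted p = 0.000197). Sprr2b was 90.4 and 134 FPKM in DKO and 5.47 and 3.18 in KH (log2 4.42 ± 0.47, adjusted p = 0.00263). Sprr2f was listed at 0 in KH and at 11.3 and 19.6 FPKM in DKO (adjusted p = 0.000137), and Sprr2i was 3.48 and 5.34 FPKM in DKO and 0.051 and 0.0785 in KH (log2 2.32 ± 0.23, adjusted p = 0.00211). Sprr2d and Sprr1b rose from a higher start. Sprr2d was 771 and 875 FPKM in DKO and 74.9 and 75.1 in KH (log2 3.44 ± 0.55, adjusted p = 0.035), a call lost without any 1 DKO or KH library or KO replicate 3, and Sprr1b was 444 and 912 FPKM in DKO and 66.1 and 75 in KH (log2 3.16 ± 0.52, adjusted p = 0.0375), a call that held in 11 of the 22 alternatives and was lost without any 1 of the DKO, KH or WT libraries or KO replicate 3. Sprr1a and Sprr2h lay above KH in both DKO libraries without passing the test. Sprr1a was 178 and 209 FPKM in DKO and 8.59 and 43.5 in KH (adjusted p = 0.158), and Sprr2h was 263 and 219.9 FPKM in DKO and 40.7 and 84.6 in KH (adjusted p = 0.216). The Sprr2 genes are near-identical copies, and the division of reads among them is uncertain.

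The sequences upstream of the Sprr2 genes and of 2 Lce3 genes are shown because 6 Sprr2 genes and all 6 Lce3 genes were called higher. Each run covers the 250 bases before the RefSeq start of the gene on GRCm38.p6 (mm10, the build the authors mapped to), 5′ to 3′ on the gene's strand. Capitals mark a match to TGANTCA, the core bound by AP-1 (Fos and Jun) dimers, which was searched on both strands and can overlap the Nrf2 motif.
Sprr2b, chr3:92316455-92316704 (+ strand): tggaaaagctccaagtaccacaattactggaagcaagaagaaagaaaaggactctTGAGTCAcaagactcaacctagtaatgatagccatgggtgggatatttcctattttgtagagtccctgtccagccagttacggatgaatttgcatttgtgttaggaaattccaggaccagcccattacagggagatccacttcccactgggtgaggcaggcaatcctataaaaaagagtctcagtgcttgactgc
Sprr2d, chr3:92338890-92339139 (+ strand): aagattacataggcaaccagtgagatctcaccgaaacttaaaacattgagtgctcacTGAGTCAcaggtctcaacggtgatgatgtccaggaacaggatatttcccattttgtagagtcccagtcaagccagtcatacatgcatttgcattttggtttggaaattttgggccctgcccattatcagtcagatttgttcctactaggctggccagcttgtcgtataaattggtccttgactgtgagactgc
Sprr2e, chr3:92351893-92352142 (+ strand): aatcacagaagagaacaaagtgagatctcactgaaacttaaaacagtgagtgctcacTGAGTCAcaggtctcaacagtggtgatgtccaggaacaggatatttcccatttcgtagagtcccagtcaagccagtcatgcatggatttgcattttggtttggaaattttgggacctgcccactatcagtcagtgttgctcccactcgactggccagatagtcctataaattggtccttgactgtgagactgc
Sprr2f, chr3:92364937-92365186 (+ strand): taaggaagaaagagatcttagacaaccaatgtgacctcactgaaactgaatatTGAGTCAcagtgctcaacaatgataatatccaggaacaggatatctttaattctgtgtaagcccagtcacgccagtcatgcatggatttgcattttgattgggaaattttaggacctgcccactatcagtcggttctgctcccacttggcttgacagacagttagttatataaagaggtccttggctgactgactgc
Gm9782, chr3:92957140-92957389 (+ strand): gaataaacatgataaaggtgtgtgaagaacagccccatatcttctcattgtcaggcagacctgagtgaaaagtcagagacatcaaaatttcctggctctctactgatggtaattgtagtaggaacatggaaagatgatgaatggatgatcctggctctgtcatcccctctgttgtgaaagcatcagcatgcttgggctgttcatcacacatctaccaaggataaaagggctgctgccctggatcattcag
Lce3f, chr3:92991967-92992216 (+ strand): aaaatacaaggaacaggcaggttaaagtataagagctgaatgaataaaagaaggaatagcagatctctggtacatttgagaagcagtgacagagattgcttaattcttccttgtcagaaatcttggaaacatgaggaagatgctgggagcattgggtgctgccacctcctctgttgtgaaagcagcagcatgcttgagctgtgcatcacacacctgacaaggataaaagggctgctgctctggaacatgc

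The 4 Sprr2 promoters held 1 match each, starting 193 to 197 bases before the gene. Sprr2d and Sprr2e had the same base at 220 of 250 positions, or 88%, when laid side by side without gaps. Sprr2h, which was not called, held a match at -198, and Sprr1a, also not called, held 2. Neither Lce3 sequence held one. Promoters (250 bases before to 50 after the start) could be matched for 44 of the 57 higher genes, and 11 of them held TGANTCA (25%), against 6.29% of 9276 tested genes with a promoter and 8.97% of the 27025 genes in the promoter table. The Nrf2 motif TGACNNNGC was found in 20.5% of the higher genes, 16.9% of tested genes and 14% of the promoter table, and the Grhl motif AACCGGTT in 0%, 0.313% and 0.174%. The 11 matches included 10 genes of the epidermal differentiation complex, where 55.6% of 18 called genes and 22.6% of 31 uncalled genes with a promoter held TGANTCA. Outside it the share was 3.85% of 26 higher genes. Related copies share their promoters and are not independent. The matches of 6 further called genes are given with 12 bases on either side, because they lie outside the Sprr2 family.
Rptn, chr3:93393591-93393621 (+ strand), first base at -96: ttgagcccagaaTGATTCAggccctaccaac
Crnn, chr3:93144681-93144711 (+ strand), first base at -96: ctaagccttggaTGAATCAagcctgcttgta
Prr9, chr3:92124067-92124097 (- strand), first base at -138: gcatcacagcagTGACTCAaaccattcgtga
Sprr1b, chr3:92438872-92438902 (- strand), first base at -111: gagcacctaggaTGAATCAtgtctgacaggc
Tchhl1, chr3:93468655-93468685 (+ strand), first base at -87: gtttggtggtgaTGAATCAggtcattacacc
Gm5414, chr15:101628429-101628459 (- strand), first base at -195: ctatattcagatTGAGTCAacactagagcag

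The fused S100 genes, which encode large filaggrin-like proteins, split into 3 members called higher (0.454% over all tested genes) and 4 that were not called. Repetin (Rptn) was 321 and 288 FPKM in DKO and 8.31 and 5.92 in KH, a 42.8-fold higher average (log2 5.25 ± 0.40, adjusted p = 0.00036). Cornulin (Crnn) was 34.8 and 20.6 FPKM in DKO and 1.56 and 3.78 in KH (log2 2.99 ± 0.41, adjusted p = 0.0132), and Tchhl1 was 6.59 and 3.19 FPKM in DKO and 0.0838 and 0.037 in KH (log2 2.41 ± 0.28, adjusted p = 0.00554). Filaggrin itself, by the more abundant of its 2 entries, was 3520 and 1894 FPKM in DKO and 1005 and 3815 in KH and Hrnr was 372 and 159.9 FPKM in DKO and 393 and 744 in KH, and neither was called. Prr9, a small proline-rich protein gene of the same cluster, was 8.68 and 5.17 FPKM in DKO and 0.179 and 0.346 in KH (log2 2.62 ± 0.27, adjusted p = 0.00219).

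Lce3, Sprr, S100 and fused S100 genes all lie on chromosome 3 in the epidermal differentiation complex, taken here from the start of S100a1 to the end of S100a10 (chr3:90511034-93564643). This interval was chosen after the values were seen. It held 70 tested entries of the table, 8 of them placed by the locus in the table because their identifiers are not in GENCODE M21 (Lce1d and 7 entries at the filaggrin locus). Of the 70, 19 were called higher and 0 lower, so 27.1% were called against 0.36% of the 12488 entries elsewhere. Among the 19, Lce3a, Lce3b, Gm9782, Prr9, Sprr2f, Sprr2i, Tchhl1 and S100a8 averaged below 1 FPKM in KH. They entered the test through DKO alone, where they had to be higher. Both DKO libraries lay above both KH libraries in 33 of the 70 and below in 3, against 14.5% and 13.8% of all tested genes. The called genes sat in several blocks, around S100a8 and S100a9, across Sprr2, in Lce3 and at the fused S100 genes, with uncalled Lce1 genes between them.

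**Figure D3:**
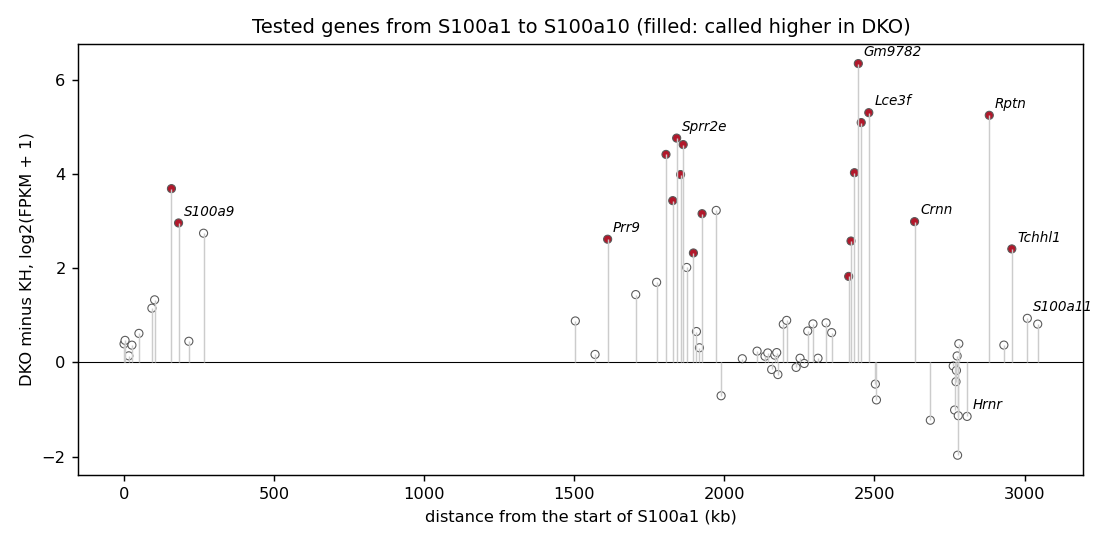
Difference between DKO and KH, log2(FPKM + 1) (vertical axis), of the 70 tested entries of the epidermal differentiation complex against their distance in kb from the start of S100a1 (horizontal axis). Filled points are the 19 called genes and open points those not called. The Lce1 genes, most of them between the Sprr2 and Lce3 blocks, are all open points and do not exceed 0.89.

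Genes of antimicrobial defence and alarm signals formed another part of the increase. Slpi, a secreted inhibitor of neutrophil elastase with antimicrobial activity, was 84 and 66.4 FPKM in DKO and 0.927 and 0.651 in KH, a 95.3-fold higher average (log2 5.41 ± 0.25, adjusted p = 2.26e-05). Ccl20, the chemokine that attracts cells with the receptor Ccr6, was 48.1 and 38.8 FPKM in DKO and 0.219 and 0.338 in KH, a 156-fold higher average (log2 5.11 ± 0.24, adjusted p = 2.26e-05). The 2 subunits of calprotectin were both called, S100a8 with 15.3 and 15.2 FPKM in DKO and 0.207 and 0.317 in KH (log2 3.69 ± 0.37, adjusted p = 0.00193) and S100a9 with 40.5 and 36.9 FPKM in DKO and 2.53 and 6.33 in KH (log2 2.96 ± 0.39, adjusted p = 0.0102). The S100a9 call was lost without either DKO library, and that of S100a8 with a pseudocount of 0.1. Defb3, a beta-defensin, was listed at 0 in both KH libraries and in the other 5, and at 2.53 and 3.12 FPKM in DKO (adjusted p = 0.00321). Of 12 tested antimicrobial genes 2 were called higher and 0 lower (0.454% and 0.0557% over all tested genes), 7 had DKO above KH (14.5% over all), and the median log2 difference was 0.98. The 2 called, Slpi and Defb3, averaged below 1 FPKM in KH, as did Ccl20 and S100a8. They entered the test through DKO alone, where they had to be higher, so these calls say nothing about direction. Chi3l1 and Defb14 were among those that did not pass, with 201 and 116 FPKM in DKO and 5.03 and 26.1 in KH (adjusted p = 0.069) and 89.5 and 122 FPKM in DKO and 9.83 and 40.2 in KH (adjusted p = 0.305).

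Of 15 tested members of the alarmin and interleukin 1 list 3 were called higher and 0 lower, Ccl20 among them (0.454% and 0.0557% over all tested genes). Of the 15, 6 had DKO above KH and 1 below (14.5% and 13.8% over all). Ccl20 and Il1b averaged below 1 FPKM in KH and so entered the test through DKO alone, where they had to be higher. Il33, an alarmin stored in the nucleus of epithelial cells, was 10.2 and 14.2 FPKM in DKO and 1.11 and 1.94 in KH (log2 2.39 ± 0.30, adjusted p = 0.00787), and Il1b was 6.99 and 4.73 FPKM in DKO and 0.689 and 1.15 in KH (log2 1.83 ± 0.26, adjusted p = 0.0175). Tslp, a cytokine of keratinocytes, had 1.42 and 3.02 FPKM in DKO and 0.0944 and 0.109 in KH and stood just outside the threshold (adjusted p = 0.0569). Irak3, an inhibitor of interleukin 1 and Toll-like receptor signalling, was 3.89 and 3.48 FPKM in DKO and 0.412 and 0.766 in KH (adjusted p = 0.0166). Saa1, an acute-phase protein, was 28.8 and 11.6 FPKM in DKO and 0.419 and 2.02 in KH (adjusted p = 0.0155). Markers of immune cells (Ptprc, Cd74 and others) summed to 47.7 and 18.2 FPKM in DKO and 14.9 and 60.9 in KH, with 0 of 7 tested markers called and Cd207 below 1 FPKM in all 4 libraries. The KH library with the highest immune sum had 0.317 FPKM of S100a8 and 1.15 of Il1b. Whether immune cells contribute to the values of these 2 genes was not tested.

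Markers of red blood cells were apart between the groups without passing the test. The 5 tested members of 9 (Hba-a1, Hba-a2, Hbb-b1, Hbb-b2 and Alas2) had both DKO libraries above both KH libraries, and the list summed to 432 and 1520 FPKM in DKO and 15.4 and 172 in KH. None of the 5 was called (Hbb-b1: log2 3.90, adjusted p = 0.496), and Slc4a1, Hbb-y and Epb4.2 were below 1 FPKM in all 4 libraries. In KO replicate 1 the sum was 587 and in WT replicate 1 624, above the first DKO library. Krt6b was 3.24 and 6.87 FPKM in these 2 libraries, Slpi 0.394 and 0.363, and Lce3f 1.87 and 2.26. These 3 were picked from the called genes, and whether blood content bears on the called genes was not tested.

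Among growth factors and nuclear regulators single genes passed, and their calls were lost in most of the 22 alternatives. Epgn was called in 9 of them, Fosl1 in 9, Arc in 7 and Isx in 10. Epgn, an epidermal growth factor receptor ligand, was 5.42 and 12.4 FPKM in DKO and 0.728 and 1.37 in KH (adjusted p = 0.0312) and was the only called member of 9 tested EGF ligands and receptors. Areg and Hbegf, other ligands of the same receptor, were above KH in both DKO libraries with 2.39 and 2.11 FPKM in DKO and 0.618 and 0.75 in KH (adjusted p = 0.139) and 5.15 and 7.14 FPKM in DKO and 2.05 and 3.76 in KH (adjusted p = 0.48), whereas the ligand Btc was 16.4 and 11.1 FPKM in DKO and 30 and 91.8 in KH (adjusted p = 0.512). Fosl1, a subunit of AP-1, was 2.6 and 2.99 FPKM in DKO and 0.0886 and 0.57 in KH (log2 1.54 ± 0.25, adjusted p = 0.0364), the only call among 16 AP-1 and immediate early genes on that list. Arc, an immediate early gene best known in neurons and not on the list, was 2.02 and 4.98 FPKM in DKO and 0.165 and 0.257 in KH (adjusted p = 0.0479), and Isx, a homeobox gene known from the intestine, was 2.29 and 1.78 FPKM in DKO and 0.134 and 0.152 in KH (adjusted p = 0.0277). Of 24 epidermal transcription factors 0 were called, 7 had both DKO libraries above both KH libraries and 3 below (0.51%, 14.5% and 13.8% over all tested genes), and the median log2 difference was 0.24. Vdr, the vitamin D receptor, was 4.66 and 6.04 FPKM in DKO and 2.7 and 3.28 in KH (adjusted p = 0.528). Grhl1 was 43 and 41.6 FPKM in DKO and 62.4 and 107 in KH (adjusted p = 0.8), with both DKO libraries below KH.

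The remaining higher genes were of mixed function. Protease inhibitors were Spink12 with 9.34 and 5.91 FPKM in DKO and 0.0543 and 0.168 in KH (log2 2.93 ± 0.25, adjusted p = 0.000672), Spink7 with 8.54 and 13.8 FPKM in DKO and 0 and 0.793 in KH (adjusted p = 0.00629) and Fetub with 13.7 and 6.33 FPKM in DKO and 0.437 and 0.925 in KH (adjusted p = 0.00928). The locus of Spink7 overlaps another gene. The small heat shock proteins Cryab and Hspb8 were called together. Cryab was 11.9 and 10.8 FPKM in DKO and 1.21 and 1.04 in KH (log2 2.54 ± 0.21, adjusted p = 0.00047), and Hspb8 was 71.9 and 56.5 FPKM in DKO and 14.9 and 23.1 in KH (adjusted p = 0.0377). Slc5a8, a transporter of monocarboxylates, was 12.9 and 9.26 FPKM in DKO and 0.414 and 0.633 in KH (log2 2.97 ± 0.23, adjusted p = 0.00036). Redox enzymes were Lpo (lactoperoxidase) with 6.96 and 5.36 FPKM in DKO and 0.0987 and 0.432 in KH (adjusted p = 0.00128) and Gpx2, a glutathione peroxidase and the only call among 25 Nrf2 response genes, with 1.48 and 1.82 FPKM in DKO and 0.127 and 0.0782 in KH (adjusted p = 0.0466). Tpm2, an actin-binding tropomyosin, was 56.7 and 49.2 FPKM in DKO and 12.1 and 11.8 in KH (adjusted p = 0.00928), and Mapre2, a microtubule end-binding protein, was 29 and 31.5 FPKM in DKO and 8.63 and 9.71 in KH (adjusted p = 0.0132). These last genes were expressed in all libraries and rose by 4.44-fold and 3.3-fold. Their calls were lost without either DKO library, and that of Mapre2 also without KH replicate 1 and after TPM scaling.

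Pla2g4e, a cytosolic phospholipase, was 17.6 and 23.4 FPKM in DKO and 1.65 and 3.44 in KH (adjusted p = 0.0166), and Psors1c2, a gene of the psoriasis susceptibility locus, was 15.6 and 13.4 FPKM in DKO and 0.575 and 2.5 in KH (adjusted p = 0.0102). Sema3g, a secreted semaphorin, was 5.95 and 4.1 FPKM in DKO and 0.815 and 0.449 in KH (adjusted p = 0.013), and Akr1c18, a steroid dehydrogenase, was 3.66 and 3.02 FPKM in DKO and 0.197 and 0.541 in KH (adjusted p = 0.0364). Smaller differences were those of Serinc2 at 2.6-fold, Gyk (glycerol kinase) at 2.87-fold and Arhgdig at 3.17-fold. The KH libraries held 1.70 to 5.69 FPKM of these 3 genes. Gm5414 was listed at 0 in both KH libraries and at 1.21 and 1.83 FPKM in DKO. The short snoRNAs Snora7a and SNORA42 were listed at 0 in all 7 other libraries and at 7.91 and 10.1 and at 11.7 and 7.25 FPKM in DKO. They span 140 and 134 bases within other genes, so reads of those genes cannot be separated from theirs.

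The genes called lower numbered 7. Besides Esrp2 (log2 -5.81 ± 0.37, adjusted p = 0.000126), the largest differences were in Slc6a19, a transporter of neutral amino acids, with 0.229 and 0.0473 FPKM in DKO and 7.79 and 17.7 in KH (log2 -3.50 ± 0.40, adjusted p = 0.0044), and Aldh1a7, an aldehyde dehydrogenase, with 2.11 and 2.65 FPKM in DKO and 34.9 and 38 in KH (log2 -3.47 ± 0.41, adjusted p = 0.00529). Sod3, the extracellular superoxide dismutase, was 0.311 and 0.0983 FPKM in DKO and 6.37 and 21.1 in KH (log2 -3.41 ± 0.52, adjusted p = 0.026), and Mgarp, a mitochondrial protein, was 0.437 and 0.511 FPKM in DKO and 7.64 and 7.71 in KH (log2 -2.56 ± 0.41, adjusted p = 0.0331). Emb, a partner protein of monocarboxylate transporters, was 3.27 and 2.68 FPKM in DKO and 8.73 and 7.68 in KH (log2 -1.21 ± 0.18, adjusted p = 0.0252). Gm9000, an annotated processed pseudogene of a ribosomal protein (Rps3a3), was 78.7 and 86.7 FPKM in DKO and 660.3 and 589 in KH (log2 -2.90 ± 0.31, adjusted p = 0.00263), and reads of its parent gene could be assigned to it. The loci of Esrp2, Slc6a19, Gm9000 and Emb overlap other genes in the table. Without the first or the second DKO library 3 genes were called lower.

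Around Esrp2 itself no other gene was called, where 0.51% of all tested genes were. Of 28 tested genes within 500 kb of either end on chromosome 8, 4 had DKO above KH and 4 below, shares like the 14.5% and 13.8% over all tested genes, and the median log2 difference was 0.01. The 2 genes whose loci overlap Esrp2 were the lowest of them. 1810019D21Rik was 0.384 and 0.743 FPKM in DKO and 3.15 and 12.8 in KH (log2 -2.28 ± 0.46, adjusted p = 0.104), and Nfatc3 was 4.86 and 5.49 FPKM in DKO and 10.2 and 7.57 in KH (log2 -0.67 ± 0.23, adjusted p = 0.635). Cdh1, the E-cadherin gene in the same interval, was 125 and 126 FPKM in DKO and 118 and 118 in KH.

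Several lists of the epidermal programme held no call, but with 0.51% of all tested genes called, 0 calls in lists of this size is no result about them. None of 14 cornified envelope precursors and transglutaminases, 23 barrier lipid genes, 13 desmosome genes, 14 tight junction genes, 18 basement membrane and hemidesmosome genes, 11 epithelial identity genes or 4 mesenchymal identity genes was called, and their median log2 differences ran from -0.17 to 0.17. Vim, a mesenchymal intermediate filament gene, was 58 and 58.1 FPKM in DKO and 55.8 and 56.4 in KH. Of 35 genes whose splicing the study assigns to Esrp 0 were called in level, with a median of -0.12. Of 33 cell cycle genes 0 were called, and the groups overlapped in all 33, as in 71.6% of all tested genes. These are results at 2 libraries per group, and a p above the threshold does not show that levels were equal.

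Some lists without a call had libraries apart mostly on one side, the red blood cell markers above among them. Of 13 desmosome genes 5 were below and 2 above, and Dsc1, a desmosomal cadherin of the upper layers, was 59.4 and 72.1 FPKM in DKO and 124 and 127 in KH (adjusted p = 0.987). Of 11 Skint genes, epidermal relatives of butyrophilins, 5 had both DKO libraries below both KH libraries and 0 above, with a median of -0.90, and Skint2 was 6.19 and 1.57 FPKM in DKO and 17.8 and 36.4 in KH (adjusted p = 0.159). Of 24 glycolysis and hypoxia genes 11 were below and 3 above, with a median of -0.29. Bnip3, a mitophagy receptor induced by hypoxia, was 20.8 and 9.92 FPKM in DKO and 51.2 and 73.8 in KH (adjusted p = 0.181), and Vegfa was 16 and 15.2 FPKM in DKO and 22.6 and 38.9 in KH (adjusted p = 0.775). Of 22 snRNP and Lsm genes 11 were above and 0 below, with a median of 0.34, and Snrpd2 was 359 and 269 FPKM in DKO and 206 and 180.4 in KH (adjusted p = 0.987). Of 10 stefin A genes, cysteine protease inhibitors of the cornified envelope, 4 were above and 0 below, with a median of 0.56, and Stfa2 was 7636 and 3446 FPKM in DKO and 1027 and 2915 in KH (adjusted p = 0.785). Over all tested genes 14.5% were above and 13.8% below.

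**Figure D4:**
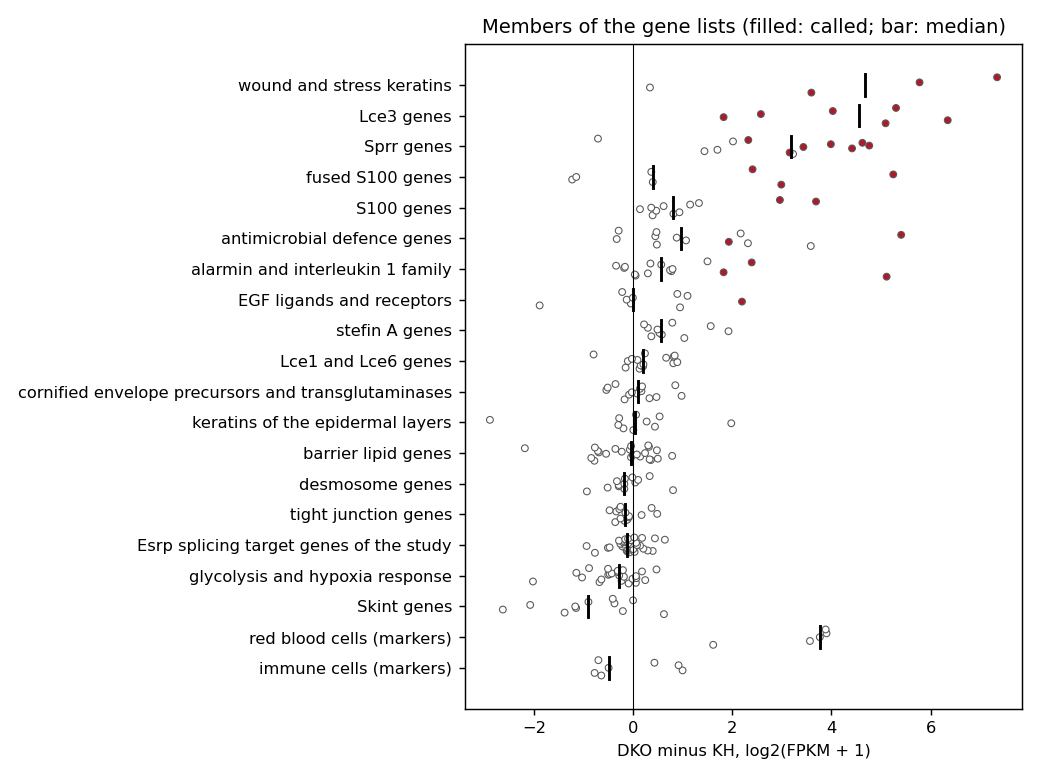
Difference between DKO and KH, log2(FPKM + 1) (horizontal axis), of every tested member of 20 gene lists (rows). Filled points are called, open points are not, and the black bar is the median of the list. Calls gather in the wound keratins, Lce3, Sprr, S100 and defence lists, and the red blood cell markers lie to the right without a call.

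The study itself named 27 of the tested genes for their expression in these skins, largely from comparisons with WT and not with KH. Of these, 16 were called here, all higher, 22 had both DKO libraries above both KH libraries and 3 (Grhl1, Krt77 and Skint4) below without a call. Over all tested genes 0.454% were called higher, 14.5% lay above and 13.8% below. That list was chosen on these samples and is not independent evidence of direction.

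The step from 1 allele to 0 was then set beside the step from 2 alleles to 1. The 3 KO libraries had Xist at 76.2 to 180.4 FPKM and summed Y-linked markers of 0.0554 FPKM or less, whereas the KH and DKO libraries had the reverse pattern, so in the step from KO to KH, and in any difference between the steps, allele number and sex cannot be told apart. Between KH and KO 0 of 12558 genes were called by limma (0%). An unadjusted p below 0.05 was found for 53 genes (0.422%), far fewer than the 5% that tests with no difference give. The p-values of this step thus ran high, and the 0 is no result about the first allele. Between DKO and KH 682 genes had an unadjusted p below 0.05 (5.43%), which is close to that 5%. The 2 steps share the KH libraries, so their values are given side by side. For the 57 higher genes the median log2 difference was 2.63 from KH to DKO and 0.00 from KO to KH, where it ranged from -0.81 to 0.76 and was positive in 25 genes. From KO to KH 51 of the 57 differed by less than 0.5, as did 12268 of the 12558 tested genes. In 24 of the 57 all 7 other libraries were below 1 FPKM, where this scale keeps differences small. A level first step is thus no result about these genes. For the 7 lower genes the medians were -3.41 and -0.33. Esrp2 fell by 5.81 in the last step and by 0.76 in the first.

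The difference between the steps was tested as a contrast of its own (last minus first, adjusted p below 0.05 in limma). It passed in 17 genes (0.135% of tested genes), 16 of them with the larger rise at the last allele and Esrp2 with the larger fall, and all 17 were also called between DKO and KH. Without a filter it passed in 22 genes, 16 of them with the larger rise. Of the 17, Lce3d, Ccl20, Slpi, Sprr2f, Spink12, Slc5a8, Lce3b, Snora7a and SNORA42 averaged below 1 FPKM in KH. They entered the test through DKO alone, where they are high. Among the 17 the largest were Lce3d (Gm9782) at 6.66 ± 0.48 (SE, log2 scale, adjusted p = 0.00241) and Krt6b at 6.65 ± 0.64 (adjusted p = 0.00588). Slpi and Ccl20 followed the same pattern with 5.40 ± 0.42 (adjusted p = 0.00241) and 5.05 ± 0.41 (adjusted p = 0.00241). Krt16 stood just outside with an adjusted p of 0.0504, and Krt6a had 0.11. The number fell to 6 without KH replicate 2, to 5 without KO replicate 2 or 3, and rose to 32 without KH replicate 1, where 10 of the 32 had the larger rise at the last allele and the other 22 went the other way.

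**Figure D5:**
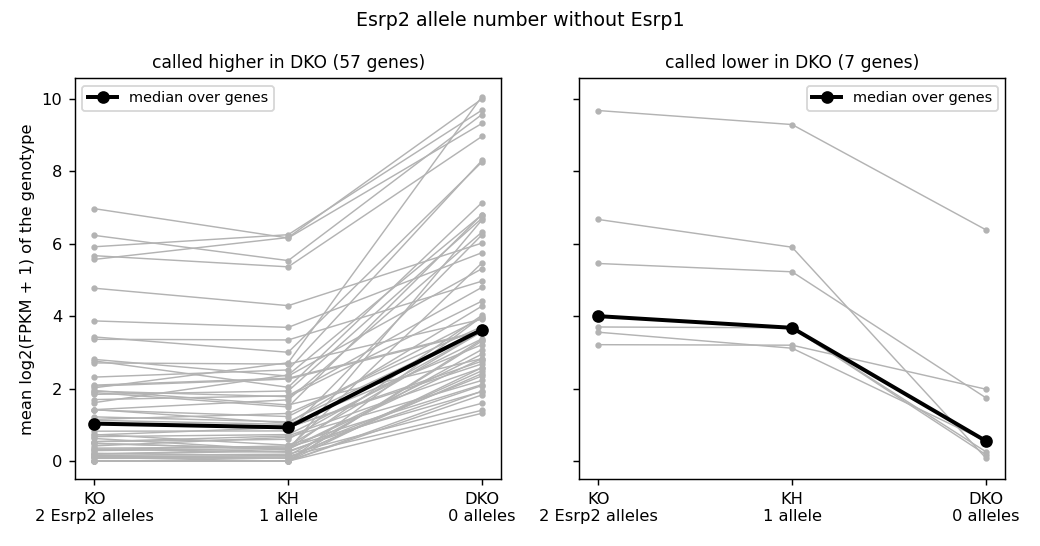
Mean log2(FPKM + 1) of the genotype (vertical axis) for libraries without Esrp1 and with 2, 1 or 0 Esrp2 alleles (KO, KH, DKO on the horizontal axis), 1 grey line per called gene, and the median over genes in black. The lines of the 57 higher genes (left) and of the 7 lower genes (right) were selected on the KH to DKO step, and stay nearly level from KO to KH. Of all 12558 tested genes, 12268 differed by less than 0.5 from KO to KH.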

How the data were processed

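RNA-seq was made by the authors from polyadenylated RNA of the trypsin-separated epidermis of single embryos. Per the labels and the methods of the study, the aligner was TopHat 1.4.1, the genome mm10 and the annotation Ensembl release 72, and the deposited FPKM values were estimated per gene with Cuffdiff 2.2.0. The libraries were strand-specific, but the strand setting and the scaling of libraries in Cuffdiff are not given in the sources used here. Depth is unknown from the table. An extract note gives the WT libraries another genotype than their titles, and the titles were followed.

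Genes averaging at least 1 FPKM in DKO or KH were taken as log2(FPKM + 1), a scale that understates the change of low genes. All 9 libraries were fitted in limma 3.58.1 (R 4.3.3) with 4 genotype means and an intensity trend, and p-values were adjusted by Benjamini-Hochberg over all 12558 genes. The script was tested on simulated data. Fold changes are ratios of average FPKM. The smallest groups hold 2 embryos, and litters are not given. Named were Esrp1, Esrp2, the 10 largest increases and all decreases among called genes that did not overlap, called and most abundant list members, genes the study names, markers and neighbours of Esrp2. Other genes, and the interval of the epidermal differentiation complex, were picked once values were known. The comparison, lists and motifs were chosen with earlier results of these data known. Loci came from GENCODE M21, promoters from RefSeq (GRCm38.p6). Loci of 5222 tested genes overlap another gene. Columns of group means were not used. Alternatives are given in the closing section.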

Additional observations from a re-analysis of the deposited data

Results flagged for a closer look

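The difference between the last and the first Esrp2 allele passed its test (limma contrast, adjusted p below 0.05) in 17 genes and was therefore marked for a closer look. The KO libraries were female by Xist and the KH and DKO libraries male, so allele number and sex cannot be told apart in it. On the log2(FPKM + 1) scale the last step exceeded the first by 6.66 in Gm9782 (Lce3d), 6.65 in Krt6b, 5.82 in 2310001H18Rik (Lce3e), 5.70 in Lce3f, 5.67 in Rptn, 5.40 in Slpi and 5.05 in Ccl20. It was 4.67 in Sprr2e, 4.36 in Sprr2g, 4.09 in Sprr2f, 3.00 in Spink12, 2.91 in Slc5a8, 2.68 in Cryab and 2.58 in Lce3b. The snoRNAs SNORA42 and Snora7a had 3.35 and 3.31, from values listed at 0 in all KH and KO libraries. Esrp2, the deleted gene, had -5.05. Genes among the 17 that averaged below 1 FPKM in KH entered the test through DKO alone. Groups of 2 and 3 libraries are too small for a test of single outlying libraries.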

How the results depend on the processing

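The number of genes called between DKO and KH, 64 as reported, ran from 38 to 91 (TPM) across the alternatives, and 23 of the 64 genes passed in all 22 alternatives. Besides the genes so described in the report, Arhgdig, Gyk, Gpx2, Serinc2, Akr1c18, Emb, Gm14010, Gm5414 and Hspb8 were called in 4 to 10 of the 22, and Sod3 in 12 (lost without either DKO or WT library, KH replicate 2, or KO replicate 2 or 3). Mgarp was called in 14 (lost without any 1 DKO or KH library or KO replicate 2), and Il1b and Irak3 in 15, Il1b lost without DKO or KH replicate 1 and Irak3 without either DKO library. Pla2g4e was called in 16 (lost without either DKO library or KH replicate 1) and Saa1 in 17 (lost without DKO or KH replicate 1). Sema3g was lost without DKO replicate 1 or KH replicate 2, Crnn without DKO or KH replicate 1, and Psors1c2 without either DKO library. Fetub was lost without KH replicate 1, Aldh1a7 without DKO replicate 1, and Il33, Spink7 and Slc6a19 without DKO replicate 2. With only DKO and KH in the fit, which leaves 2 residual degrees of freedom, 38 genes were called, 29 of them higher. Genes called lower numbered 15 with a pseudocount of 0.1 (42 higher) and 32 after TPM scaling. Leaving out 1 library at a time gave 44 to 79 calls, 40 to 59 higher and 3 to 39 lower. The lower calls numbered 39 without KH replicate 1, 15 without KO replicate 1, 4 without KO replicate 2 and 3 without either DKO library. Genes called for the difference between the steps numbered 7 with a pseudocount of 0.1, 4 with array weights, 11 after a correction for transcript length, and 5 to 32 without single libraries (32 without KH replicate 1, 10 of them with the larger rise at the last allele). Between KH and KO 1 gene was called without a filter, and 0 to 12 without single libraries (12 without KH replicate 1, 4 without either WT library, 2 without KO replicate 1 and 1 without KH replicate 2). The log2 difference of Esrp1 ran from -0.44 without KH replicate 1 to 1.11 without KH replicate 2. The other alternatives (median ratio, quantile normalization, no trend, no fold threshold, another filter) stayed within 1.5 times of each of these counts.

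By the replicate numbers of the sample titles, same-numbered libraries of DKO and KH deviated in opposite directions (r = -0.449). So did those of DKO and KO (r = -0.597 and -0.577), while those of KH and KO deviated together (r = 0.49 and 0.354). The sample descriptions give other numbers to the DKO libraries, KO replicate 3 and WT replicate 2. For DKO and KH, with 2 libraries each, the opposite pairing reverses the sign of r. Nothing in the labels ties a number to a litter or day, and the numbers were not taken to pair the samples. With the replicate number as a block 47 genes were called, 40 of them higher, and 7 for the difference between the steps. With the KH numbers crossed, an alternative chosen after seeing the data, 45 were called, 40 higher and 5 lower, and 6 for the difference between the steps. The cause of these changes was not tested. Depth per library was not in the table, and 2 libraries per group limit what can be called.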

Other observations

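Rps13-ps1 and Rps15a-ps8, pseudogenes of ribosomal proteins, were chosen after their values were seen, and neither was called. Rps13-ps1 was at 0.349 and 0.136 FPKM in DKO and 192 and 256 in KH (log2 -7.49, adjusted p = 0.518). The same gene was at 543 FPKM in KO replicate 1 and at 0.408 or less in the other KO and WT libraries. Rps15a-ps8 was listed at 0 in both DKO libraries, at 15.8 and 18.6 FPKM in KH, at 39.9 in KO replicate 1 and at 0 in the other 4 libraries (adjusted p = 0.635). The levels of both varied among embryos of the same genotype.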
